A study of Mus musculus with 11 samples.

Results

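The genes described here encode the proteins of the cytosolic ribosome, measured in pooled hearts of mouse embryos at embryonic day 9.5. A gene was included where a probe set was annotated with exactly 1 symbol, and that symbol was of the Rpl, Rps or Rplp series, with ribosomal S6 kinases and pseudogenes left out. Where a gene had several such probe sets, the brightest over all arrays stood for it. This gave 49 genes of the 18193 genes represented, on 104 of the 45037 probe sets tested. One of the 49, Rps19bp1, encodes a protein that binds the ribosomal protein Rps19 and is not a ribosomal protein itself. The other 48 are genes of ribosomal proteins and of their paralogs.

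Each of 11 one-colour arrays was hybridised with RNA from pooled hearts, 50 ng per amplification. The control group (n = 3 arrays) was Gata4 flox/+; Nkx2-5 +/+, with 1 floxed Gata4 allele and no Cre. The double heterozygous group (n = 3) was Gata4 flox/+; Nkx2-5 cre/+, and the group labelled CKO (n = 5) was Gata4 flox/flox; Nkx2-5 cre/+. All 3 groups therefore carried at least 1 floxed Gata4 allele. In both Cre groups 1 Nkx2-5 allele carries Cre, which is made where Nkx2-5 is active. The labels do not say whether the pools of a group came from separate litters, so the p-values measure the spread between these arrays. In bulk RNA of this kind, fewer cells of a type and less RNA per cell cannot be told apart.

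Ribosomes make all cellular protein from a small and a large subunit, each built of ribosomal RNA and a defined set of proteins, most of them present once. The proteins are imported into the nucleolus and assembled there with the help of biogenesis factors that leave before the ribosome works. Messenger RNAs of ribosomal proteins are among the most abundant in growing tissue, and most begin with a run of C and T bases (the terminal oligopyrimidine tract) through which mTORC1 controls their translation. Protein output can therefore change with no change in these messenger RNAs, and the arrays measured the RNA alone.

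The start of such a transcript is shown for 4 genes of different roles: Rpl7a, with the lowest unadjusted p of the set in the first comparison below; Rps24, with the lowest in the second; Rplp2, of the stalk; and Rps6, the substrate of S6 kinase. Each window runs from 30 bases before to 20 bases after the annotated start, 5′ to 3′ on the gene's strand, and capitals mark every unbroken run of at least 6 C or T bases around the start. The sequences are RefSeq's, on GRCm38.p6, at chr2:26910777-26910826 (plus strand) for Rpl7a, chr14:24490648-24490697 (plus strand) for Rps24, chr7:141447621-141447670 (plus strand) for Rplp2 and chr4:86857348-86857397 (minus strand) for Rps6.
Rpl7a: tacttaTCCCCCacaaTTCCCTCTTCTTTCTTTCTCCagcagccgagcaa
Rps24: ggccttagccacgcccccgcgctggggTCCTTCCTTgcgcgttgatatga
Rplp2: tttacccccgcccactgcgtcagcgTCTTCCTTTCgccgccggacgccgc
Rps6: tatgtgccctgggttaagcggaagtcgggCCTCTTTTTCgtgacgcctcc
The longest run was 21 bases in Rpl7a, 9 in Rps24 and 10 in both Rplp2 and Rps6, and in each window shown the run spans the annotated start. Rps24 has 2 RefSeq promoters, and the one shown was picked for the longest run across the start. The other genes shown have 1 each. RefSeq promoters were matched for 42 of the 48 genes of ribosomal proteins and their paralogs, 50 promoters in all. A run of at least 10 C or T bases lay in the window of 30% of the 50, against 9.6% of all 32851 promoters. A run of at least 6 that spans the start was found in 24% against 7.25%. Over the whole 300 bases of each promoter, the letters CCGGAAG on either strand, which ETS family factors such as GABP recognise, stood in 40% of the members' promoters against 8.86% of all. The letters AGATAA, one spelling of the site that GATA factors bind, stood in 6% against 11.2%, and TGATAA, which shares the last 5 letters, in 10% against 9.05%. A match is a stretch of letters and was not tested as a site.

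No ribosomal protein gene passed the test in any comparison. In the CKO-labelled hearts against control, 0 of 49 members were called (limma, Benjamini-Hochberg adjusted p under 0.05 over all probe sets), where 1.4% of all probe sets were; 5 members, or 10.2%, had an unadjusted p under 0.05, against 13.2% of all probe sets. Against the double heterozygous hearts, 0 of 49 were called where 0.349% of all probe sets were, and 6 members, or 12.2%, had an unadjusted p under 0.05, against 12% of all. Between the double heterozygous and control hearts, 0 of 49 were called, as were 0% of all probe sets, and 0 members had an unadjusted p under 0.05, against 3.19% of all. The F-test over the 3 groups likewise called 0 members, where it called 0.961% of all probe sets; 6 members, or 12.2%, had an unadjusted p under 0.05, against 11.7% of all. Counted over genes, each by its brightest probe set as the members are, the shares called were 2.09%, 0.55% and 0%, and those with an unadjusted p under 0.05 were 15.5%, 13.3% and 2.91%. Among 49 genes, 2.09% is about 1 gene, so the counts of 0 do not set the members apart.

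The sizes of the differences were small and lay on both sides of 0. The median log2 difference of the 49 members was -0.01 in each of the comparisons: CKO-labelled minus control, CKO-labelled minus double heterozygous, and double heterozygous minus control. In the first of these 24 members lay above 0 and 25 below, in the second 23 and 26, and in the third 18 and 31. The median over all 45037 probe sets was -0.01 in both comparisons with the CKO-labelled hearts, and -0.00096 between the other groups. Members ranged from -0.46 to 0.25 against control, from -0.37 to 0.42 against double heterozygous hearts, and from -0.21 to 0.27 between the latter and control.

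The width of an interval depended on how bright a gene was. Most members were read by probe sets with some of the brightest signals on the array. Of the 42 proteins of the ribosome proper, 36 had a mean log2 intensity of at least 9, and the median of these 36 stood at the 99.7th percentile of all probe sets. For 34 of the 36, the 95% interval of the difference between CKO-labelled and control hearts lay within 1.2-fold of no change in either direction, and all 36 lay within 1.5-fold. The exceptions were Rpl37, a zinc-binding protein of the large subunit, at 0.14 with an interval from -0.05 to 0.34 (0.08 without control replicate 3 and 0.09 without CKO replicate 1), and Rpl27, of the same subunit, at -0.14 with an interval from -0.28 to 0.00. Against the double heterozygous hearts 31 of 36 lay within 1.2-fold and all 36 within 1.5-fold; the 5 others were Rpl27, Rpl37, Rpl39, Rps24 and Rps27. Between the double heterozygous and control hearts all 36 lay within 1.2-fold. Whether signals this bright follow the amount of RNA in proportion was not tested, so the intervals bound the signal only. These intervals are for each gene alone and are not widened for the number of genes. They are from the quantile-normalised scale, which gives every array the same set of values. A shift common to most bright genes therefore cannot appear in them. The median of the 36 against control was -0.0013 on that scale, -0.11 on the deposited scale and -0.12 with each array centred on its median.

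Below that brightness the arrays measured less. The 10 dim members were Rpl12, Rpl14, Rpl27a, Rps6, Rps16 and Rps25 of the ribosome proper, the relatives Rpl39l, Rpl3l and Rpl7l1, and Rps19bp1. Of these 10, 0 had an interval within 1.2-fold in any comparison, and 9, 6 and 8 lay within 1.5-fold in CKO-labelled against control, CKO-labelled against double heterozygous, and double heterozygous against control hearts. The median within-group SD was 0.213 over the 10 dim members and 0.0594 over the 36 bright ones. All probe sets with a mean log2 of at least 9, 3146 in number, had a median SD of 0.122, above that of the bright ribosomal protein genes. A dim signal for a gene of the ribosome, such as that of Rps16, is the reading of its probe set and not the level of the messenger RNA, and no order of expression among genes is drawn from these signals.

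**Figure D1:**
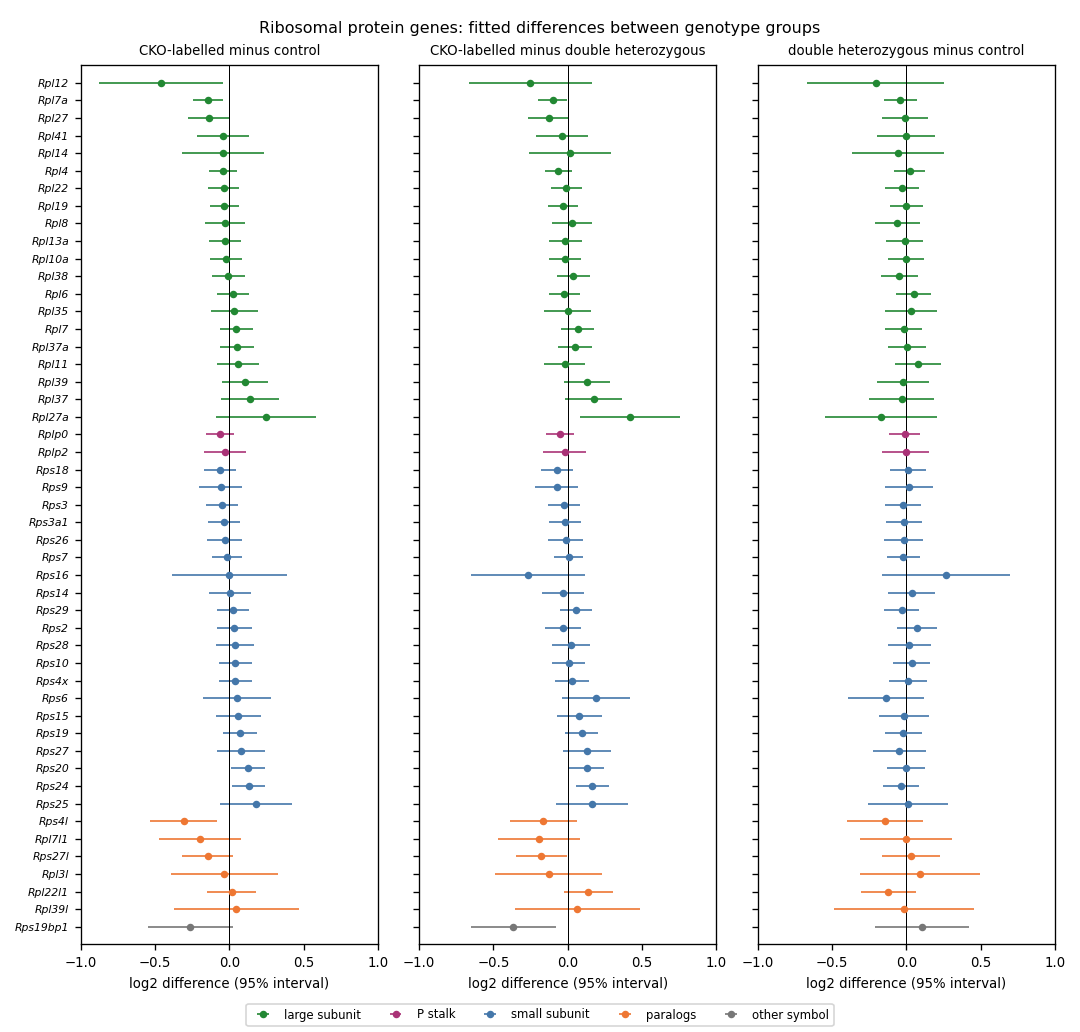
Fitted log2 difference of each of the 49 members in the 3 comparisons (x axis, log2 units; points are limma estimates, bars 95% intervals), grouped and coloured by role. Most points of the large and small subunits lie within 0.2 of 0 with short bars, and the long bars belong to dim probe sets such as Rpl12, Rpl27a and Rps16.

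Among the 20 large-subunit proteins, 8 lay above 0 and 12 below in the CKO-labelled hearts against control, with a median log2 difference of -0.03 and 0 called. Rpl7a, a large-subunit protein placed early in assembly, came nearest to the threshold. It read 12.76, 12.77 and 12.84 in the control arrays, 12.70, 12.75 and 12.79 in the double heterozygous arrays, and 12.67, 12.65, 12.64, 12.58 and 12.69 in the CKO-labelled arrays (log2 intensity). All 5 CKO-labelled arrays lay below all arrays of the other groups, which overlapped each other. The difference from control was -0.14 (SE 0.0465, 95% interval -0.24 to -0.05), a 1.11-fold lower intensity, with a limma adjusted p of 0.161, and the difference from the double heterozygous hearts was -0.10 with an adjusted p of 0.405. When dim probe sets, those with a mean log2 under 7, were left out before adjustment, the same difference had an adjusted p of 0.0391, and Rpl7a was then the 1 member called. Over its 23 alternatives the difference stayed below 0, from -0.26 to -0.12, with adjusted p between 0.0391 and 0.580.

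The widest differences in the large subunit were those of dim probe sets. Rpl12, a protein at the base of the stalk, read 6.18, 6.72 and 6.78 in control, 6.21, 6.44 and 6.41 in the double heterozygous arrays and 6.48, 6.11, 5.53, 6.20 and 6.19 in the CKO-labelled arrays. The groups overlapped, with CKO replicate 3 the lowest, and the difference from control was -0.46 (SE 0.194, adjusted p = 0.315), or -0.27 without CKO replicates 2 and 3. Rpl27a read 6.76, 6.80 and 6.54 in control, 6.53, 6.46 and 6.61 in the double heterozygous arrays and 6.63, 6.87, 6.72, 7.32 and 7.20 in the CKO-labelled arrays, with replicates 4 and 5 of the last group the highest. Its difference was 0.25 from control (adjusted p = 0.554), or 0.15 without CKO replicate 4, and 0.42 from double heterozygous hearts (SE 0.157, adjusted p = 0.301), whose arrays all lay below the CKO-labelled ones.

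Large-subunit proteins with roles of their own outside or around the ribosome showed nothing past the test. Rpl11, which joins the ribosome in a particle with its small ribosomal RNA and, when free, binds and inhibits Mdm2, read 11.88 to 12.11 in control, 11.92 to 12.13 in the double heterozygous arrays and 11.96 to 12.09 in the CKO-labelled arrays, a difference of 0.06 from control (adjusted p = 0.786). Rpl38, the gene mutated in Tail-short mice with their skeletal patterning defects, read 12.61 to 12.62 in control, 12.53 to 12.59 in the double heterozygous arrays and 12.52 to 12.73 in the CKO-labelled arrays, a difference of -0.01 from control (95% interval -0.12 to 0.10). Its double heterozygous arrays all lay below the control arrays, by -0.05 on average (adjusted p = 1.0). Rpl27 had an adjusted p of 0.386 for its difference from control, and Rpl39 was at 0.11 (adjusted p = 0.594), but at 0.02 without control replicate 1 and 0.16 without control replicate 3. The other 12 large-subunit proteins lay between -0.04 and 0.05.

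The stalk is the flexible arm of the large subunit that recruits elongation factors, and Rplp0 is its base. Rplp0 read 12.61, 12.67 and 12.65 in control, 12.63, 12.63 and 12.64 in the double heterozygous arrays and 12.62, 12.55, 12.55, 12.62 and 12.56 in the CKO-labelled arrays. Every CKO-labelled array lay below every double heterozygous array, but not below every control array, and the difference was -0.06 from control (SE 0.0446, adjusted p = 0.604) and -0.05 from double heterozygous hearts (adjusted p = 0.687). Rplp2 read 12.68, 12.75 and 12.69 in control, 12.70, 12.69 and 12.71 in the double heterozygous arrays and 12.71, 12.85, 12.57, 12.51 and 12.76 in the CKO-labelled arrays. The CKO-labelled arrays spread on both sides of the other groups, with a difference of -0.03 from control (adjusted p = 0.913).

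Of the 20 small-subunit proteins, 14 lay above 0 and 6 below in CKO-labelled against control hearts, with a median of 0.04 and 0 called; against double heterozygous hearts 12 lay above and 8 below, with a median of 0.01. Rps24, a small-subunit protein whose gene is mutated in some families with Diamond-Blackfan anaemia, read 12.36, 12.42 and 12.35 in control, 12.41, 12.25 and 12.36 in the double heterozygous arrays and 12.44, 12.50, 12.56, 12.50 and 12.54 in the CKO-labelled arrays. The CKO-labelled arrays all lay above both other groups. The difference was 0.13 from control (SE 0.0519, adjusted p = 0.285) and 0.17 from double heterozygous hearts (95% interval 0.06 to 0.28, adjusted p = 0.212), the smallest adjusted p of the members in that comparison. Rps20, of the subunit's head, read 12.41, 12.37 and 12.43 in control, 12.46, 12.30 and 12.44 in the double heterozygous arrays and 12.49, 12.54, 12.44, 12.59 and 12.58 in the CKO-labelled arrays. The lowest CKO-labelled array lay just above the control arrays and within the double heterozygous ones, and the difference was 0.12 from control (adjusted p = 0.334) and 0.13 from double heterozygous hearts (adjusted p = 0.372), or 0.07 without double heterozygous replicate 2. Both genes are represented by probe sets whose type can bind more than 1 transcript. With a probe set of another type, which was dim for both, Rps24 stood at -0.22 from control (SE 0.139, limma adjusted p = 0.552). Rps20 stood at -0.14 (SE 0.152, limma adjusted p = 0.769). The bright probe sets of both genes lay above 0 and their dim ones below, so the direction read depends on the probe set. Rpl7a, Rps24 and Rps20 are described at length because their unadjusted p was under 0.05 in both comparisons with the CKO-labelled hearts, a choice made after their values were seen.

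Rps19, the gene most often mutated in Diamond-Blackfan anaemia, read 11.95, 11.82 and 11.83 in control, 11.85, 11.83 and 11.85 in the double heterozygous arrays and 11.98, 11.98, 11.89, 11.92 and 11.95 in the CKO-labelled arrays. The CKO-labelled arrays all lay above the double heterozygous ones, by 0.09 on average (95% interval -0.02 to 0.21, adjusted p = 0.50), and overlapped the control arrays. Rps6, the protein that S6 kinases phosphorylate downstream of mTORC1, was read by a dim probe set at 7.83 to 8.02 in control, 7.60 to 7.97 in the double heterozygous arrays and 7.87 to 8.14 in the CKO-labelled arrays, with differences of 0.05 and 0.19 (adjusted p = 0.893 and 0.504), the second 0.10 without double heterozygous replicate 2. Rps25, also dim, was at 0.18 from control (adjusted p = 0.564), with all 5 CKO-labelled arrays above all 3 control arrays, but at 0.10 without CKO replicate 2, and Rps14 at 0.01 (95% interval -0.14 to 0.15). Rps16 was read at or near 4.0, the log2 value of a deposited intensity of 0, in most arrays, so its differences carry no information on the gene.

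Some paralogs of ribosomal proteins are made in particular tissues or under stress, and some can take the place of the main protein. The 6 paralogs measured had a lower median than the proteins of either subunit or of the stalk, with 0 called. That median was -0.09 against control and -0.15 against double heterozygous hearts, with 4 of 6 below 0 in each. It rests on few genes, of which Rpl39l, Rpl3l and Rpl7l1 were dim. The median SE against control was 0.118 over the paralogs, against 0.0582 in the large and 0.0547 in the small subunit. Rps27l, a relative of Rps27 that p53 induces, read 11.25, 11.49 and 11.44 in control, 11.43, 11.44 and 11.40 in the double heterozygous arrays and 11.45, 11.17, 11.35, 11.09 and 11.18 in the CKO-labelled arrays. The CKO-labelled arrays reached from below to within the other groups, with differences of -0.15 from control (SE 0.0814, adjusted p = 0.484) and -0.18 from double heterozygous hearts (adjusted p = 0.408). All 3 of its probe sets lay below 0 against control, at -0.15, -0.13 and -0.19. Rps27 itself lay at 0.08 and 0.13, the second 0.07 without double heterozygous replicate 2.

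Rps4l, annotated as a relative of Rps4x, read 9.98, 9.68 and 9.90 in control, 9.63, 9.92 and 9.58 in the double heterozygous arrays and 9.68, 9.73, 9.47, 9.38 and 9.46 in the CKO-labelled arrays. The groups overlapped, and the difference from control was -0.31 (SE 0.107, adjusted p = 0.198), while Rps4x was at 0.04. Rpl7l1, a relative of Rpl7, was at -0.20 from control and -0.19 from double heterozygous hearts (adjusted p = 0.572 and 0.588), while Rpl7 was at 0.05 and 0.07. The first of the Rpl7l1 values was -0.09 without control replicate 1, -0.32 without control replicate 2 and -0.11 without CKO replicate 2, which also took the second to -0.11. Rpl22l1, which stands in for Rpl22 when that protein is missing, read 11.20 to 11.39 in control, 11.09 to 11.19 in the double heterozygous arrays and 11.10 to 11.42 in the CKO-labelled arrays. Its double heterozygous arrays all lay below the control arrays, by -0.12 on average (adjusted p = 1.0), or -0.06 without control replicate 2, and Rpl22 was at -0.03 in that comparison. In the CKO-labelled hearts Rpl22l1 was at 0.02 from control and 0.14 from double heterozygous hearts (limma adjusted p = 0.960 and 0.510). The first was -0.02 without CKO replicate 1, and the second 0.22 without CKO replicates 2 and 3. Rpl3l, the striated-muscle relative of Rpl3, was read at 4.0 to 4.75 across all arrays and at -0.03 from control. Rpl39l, a relative of Rpl39 known from testis, was at 0.05. Rps19bp1 was at -0.26 from control (adjusted p = 0.428) and -0.37 from double heterozygous hearts (SE 0.133, adjusted p = 0.284), the lowest value of the 49 in that comparison.

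**Figure D2:**
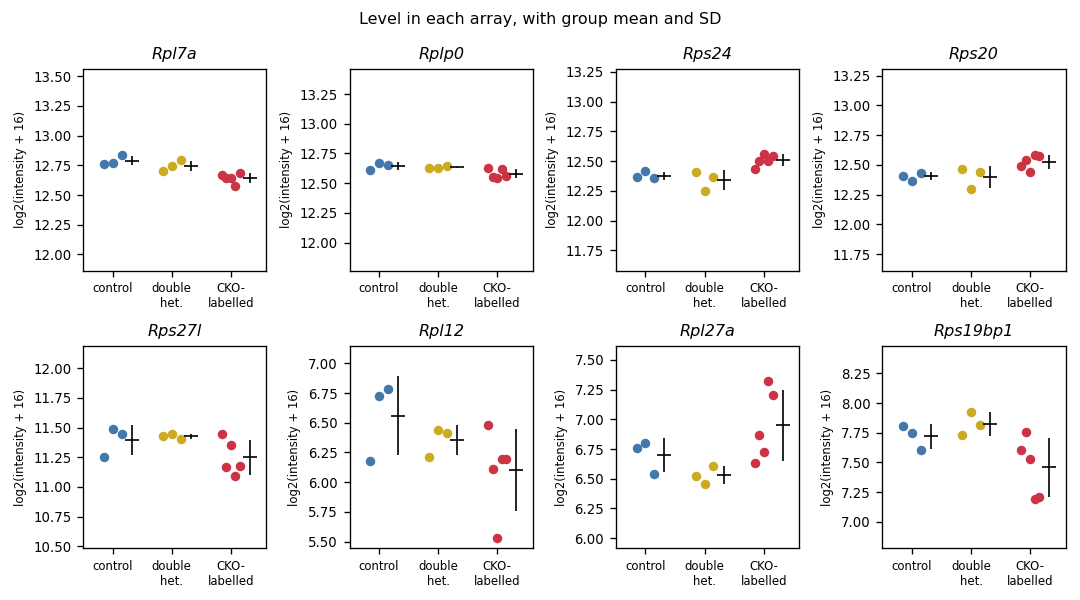
Log2 intensity of 8 members in each of the 11 arrays (y axis, log2 of deposited intensity + 16 after quantile normalisation; panels span the same number of log2 units), with points for arrays and the group mean ± SD beside them. The CKO-labelled arrays of Rpl7a lie below and those of Rps24 above all other arrays, by less than the spread of the dim Rpl12 within its groups.

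The number of members whose groups did not overlap at all was close to that over the whole array. Between CKO-labelled and control hearts these were 4 members (Rpl7a, Rps20, Rps24 and Rps25), or 8.16%, against 9.73% of all probe sets. Between CKO-labelled and double heterozygous hearts they were 5 (Rpl27a, Rpl7a, Rplp0, Rps19 and Rps24), or 10.2%, against 7.52%. Between double heterozygous and control hearts they were 3 (Rpl22l1, Rpl38 and Rps2), or 6.12%, against 10.3%. Over genes by their brightest probe set the shares were 12.3%, 9.19% and 11.1%.

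Probe sets of the same gene often pointed in different directions, which bears on how far a small difference can be read. Of the 23 genes with several probe sets, 6 had all of them on the same side of 0 in CKO-labelled against control hearts. Of 18 genes with several bright probe sets, the bright ones lay on 1 side in 7 (Rpl35, Rpl7, Rps14, Rps20, Rps24, Rps27l and Rps28). Rps24 had 4 bright probe sets between 0.13 and 0.19 and 2 dim ones at -0.21 and -0.22. Rps9 had probe sets at -0.06, 0.23 and -0.33, and Rpl22 at -0.04, -0.04 and 0.21. Of all dim probe sets of members, 19 of 27 lay below 0, and of the bright ones 34 of 77. Over all 104 probe sets, 0 were called in any comparison, and 16, 17 and 0 had an unadjusted p under 0.05. These are 15.4%, 16.3% and 0%, against 13.2%, 12% and 3.19% of all probe sets on the array. Several of the 104 read the same gene, so they are not separate results.

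**Figure D3:**
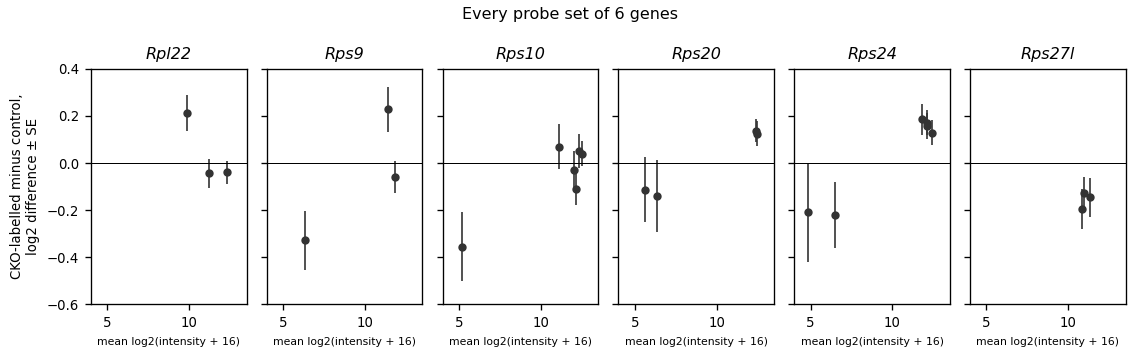
Log2 difference between CKO-labelled and control hearts (y axis, ± SE from limma) against mean log2 intensity (x axis) for every probe set of Rpl22, Rps9, Rps10, Rps20, Rps24 and Rps27l; each point is 1 probe set. Probe sets of Rps27l all lie below 0, while the bright ones of Rps20 and Rps24 lie above 0 and their dim ones below.

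Many ribosomal protein genes have near-identical copies elsewhere in the genome, and their probe sets carry several symbols. The 49 members therefore hold 42 of 76 proteins of the ribosome listed, and another 29 ribosomal protein genes were seen only through such mixed probe sets. Rplp1, Rpl5, Rpl10, Rpl3, Rpl36a, Rpl10l and Rpl36al had no probe set of their own by the rule and are not analysed here by name. The 110 mixed probe sets, added after the values were seen, had 0 called in any comparison, and medians of -0.00101, 0.01 and -0.02 in the order above. Of these, 11, 16 and 0 had an unadjusted p under 0.05, or 10%, 14.5% and 0%, against 13.2%, 12% and 3.19% of all probe sets. Rpsa and Fau encode small-subunit proteins under other names. Rpsa was at 0.02 from control (limma adjusted p = 0.934) and Fau at 0.24 (SE 0.0734, limma adjusted p = 0.140). The lowest adjusted p of the 49 members in that comparison was 0.161. Fau read 11.73 to 11.92 in control, 11.86 to 11.91 in the double heterozygous arrays and 11.94 to 12.28 in the CKO-labelled arrays. It was at 0.17 from double heterozygous hearts (limma adjusted p = 0.378). The members' own probe sets were of a type that can bind related transcripts in 15 of 49 cases, so part of their signal may be shared with a relative.

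Per array, the median deviation of the 49 members from the control mean was taken on the quantile-normalised scale. It lay between -0.01 and 0.01 in the control arrays, -0.03 and 0.01 in the double heterozygous arrays, and -0.06 and 0.03 in the CKO-labelled arrays. That scale gives every array the same set of values, so it could show little of a shift common to the bright genes of an array. As deposited, CKO replicate 3 stood at -0.55. The members' share of the summed deposited intensity was 2.59 ± 0.0425% (SD, n = 3) in control, 2.6 ± 0.0332% (n = 3) in the double heterozygous arrays and 2.62 ± 0.0920% (n = 5) in the CKO-labelled arrays. The CKO-labelled arrays held both the lowest share, 2.49% in replicate 4, and the highest, 2.74% in replicate 3, and the other groups lay between them. The SD over members of the deviations from their group means was 0.0962 to 0.165 in the CKO-labelled arrays, 0.0648 to 0.0981 in the control arrays and 0.0603 to 0.0904 in the double heterozygous arrays; the CKO-labelled and control ranges overlap, and deviations from a mean of 3 arrays are smaller by construction than from a mean of 5. Replicates 2 and 3 of the CKO-labelled arrays had the widest scatter over all probe sets. The actin control probe set at the 3′ end read 1.0 log2 units above that at the 5′ end in CKO replicate 2, against 0.295 to 0.45 in the other 10 arrays, a sign of RNA quality whose part in the results was not tested.

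**Figure D4:**
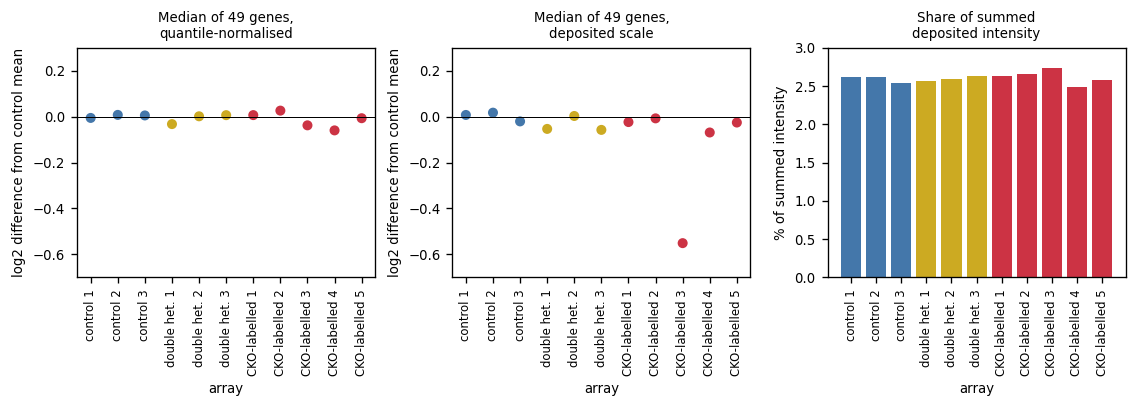
Median deviation of the 49 members from the control mean in each array (y axis, log2 units) on the quantile-normalised scale and on the scale as deposited, and the members' share of summed deposited intensity (bars, %). On the deposited scale CKO replicate 3 stands at -0.55 while the other arrays lie between -0.07 and 0.02; on the quantile-normalised scale all arrays lie between -0.06 and 0.03.

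The scale set between arrays decided where the set as a whole appeared to lie. On the deposited scale the members' median was -0.12 against control and -0.11 against double heterozygous hearts, with 44 and 41 of 49 below 0; deposited intensities averaged 117.2 in CKO replicate 3 and 166.4 to 175.6 in the control and double heterozygous arrays. Without that array the deposited-scale medians were -0.02 and -0.00456. With each array centred on its median instead, they were -0.12 and -0.15, with 44 of 49 below 0 in both, and -0.10 and -0.13 without CKO replicate 3. Under each of these scalings 0 members were called. Whether the set as a whole moved by about 0.1 therefore cannot be told apart from how the arrays were scaled.

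Genes for the factors that build ribosomes lay lower than those for the proteins that make them up. Of 40 listed biogenesis genes 39 were measured, and in CKO-labelled against control hearts 37 lay below 0, with a median of -0.15, where 9683 of 18193 genes over the array lay below 0 and their median was -0.02. Against double heterozygous hearts 34 of 39 lay below 0, with a median of -0.18. As deposited, and also with each array centred on its median, 38 of 39 lay below 0 in the comparison with control. Most genes of the other lists did so too on both of these scales. They were 44 of 49 members, 11 of 12 genes of the elongation list below and 16 of 19 initiation genes. These counts therefore do not set the biogenesis genes apart. The biogenesis median was -0.30 as deposited and -0.31 with centring, where that of the members was -0.12 on both scales. Still, on the quantile-normalised scale 1 gene of the 39 was called against control, where 2.09% of all genes were called. Against double heterozygous hearts 1 was called, where 0.55% of all genes were. Between double heterozygous and control hearts 0 were called, as were 0% of all genes. With arrays weighted by quality, and again with CKO replicates 2 and 3 both left out, 6 genes of the list (of 39) were called against control, and its median was -0.18 and -0.20; under these settings 7.15% and 4.22% of all genes were called, against 2.09% in the fit of all arrays.

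The called gene was Ltv1, an assembly factor of the small subunit that leaves the particle late, in the cytoplasm. It read 10.04, 10.04 and 9.94 in control, 9.96, 9.99 and 9.84 in the double heterozygous arrays and 9.55, 9.30, 9.59, 9.20 and 9.18 in the CKO-labelled arrays. All 5 CKO-labelled arrays lay below all 6 others. Ltv1 fell by 0.64 on the log2 scale against control (SE 0.100, adjusted p = 0.00450) and by 0.57 against double heterozygous hearts (adjusted p = 0.0220). The first call held in 21 of 21 alternatives, with adjusted p between 0.000187 and 0.0428, and the second was lost in 7 of 21, with adjusted p up to 0.195.

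Other biogenesis genes came near the threshold without passing it. Rpf2, which brings the smallest large-subunit RNA and its proteins into the particle, was at -0.31 from control (SE 0.0852, adjusted p = 0.0924). Bysl, needed for processing of small-subunit RNA, was at -0.40 (SE 0.109, adjusted p = 0.0935), and Nop56, a core protein of the particles that methylate ribosomal RNA, at -0.32 (adjusted p = 0.154). The 2 genes above 0 were Polr1c, a subunit of RNA polymerase I and III, at 0.20 (adjusted p = 0.551) and Ubtf, which activates ribosomal RNA genes, at 0.09 (adjusted p = 0.873).

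Translation factors were divided. Of 13 listed elongation factors and other genes with an oligopyrimidine tract 12 were measured, and 0 were called, with a median of 0.03 against control that turned to -0.11 as deposited and -0.12 with arrays centred on their medians; with arrays weighted by quality 1 was called. Eef1a1, which delivers aminoacyl-tRNA to the ribosome, was at -0.02 (adjusted p = 0.894). Of 23 listed initiation genes 19 were measured and 0 were called, with a median of 0.00032 that turned to -0.16 and -0.17 under those scalings. With arrays weighted by quality 4 of the 19 were called against control, and 1 without CKO replicates 2 and 3. Over all genes, 7.15% were called with these weights and 4.22% without these replicates, against 2.09% in the fit of all arrays. The initiation genes ran from Eif2b1, a subunit of the exchange factor for eIF2, at -0.42 (limma adjusted p = 0.0824) to Eif4ebp2 at 0.44 (limma adjusted p = 0.164). Eif4b, a helper of the initiation helicase, was counted with the oligopyrimidine genes and was the highest of that list, at 0.29 (limma adjusted p = 0.107).

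**Figure D5:**
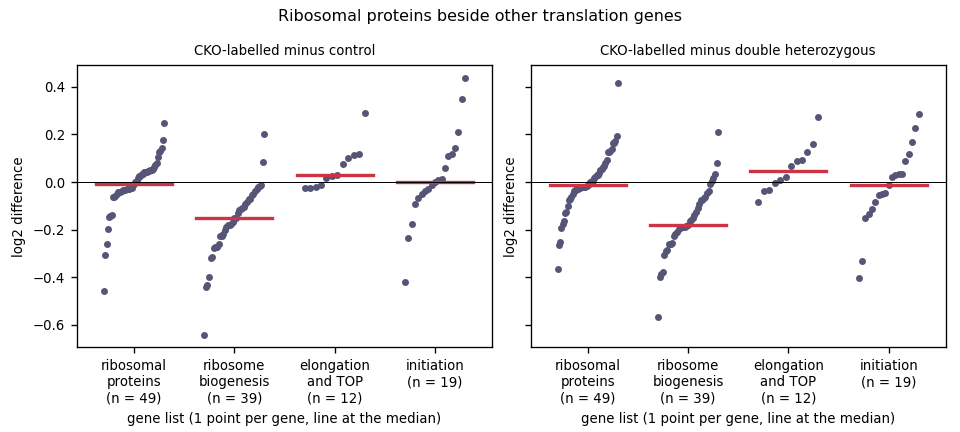
Log2 difference of CKO-labelled hearts from control and from double heterozygous hearts (y axis, log2 units) for each gene of the ribosomal protein, biogenesis, elongation and initiation lists; points are genes in rising order, lines list medians. Ribosomal protein genes lie around 0, 37 of 39 biogenesis genes lie below 0 against control, and Ltv1 is the lowest of them.

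Checks of tissue and labels bear on all of these values. All 12 cardiomyocyte markers were bright in every group, the dimmest being Nppa at 11.9, and the list's mean was 12.51 to 12.65 in every array. The other lists read as follows: the epicardial and mesothelial mean (7 of 7 genes) was 7.36 to 7.50 in control, 6.52 to 7.12 in the double heterozygous arrays and 6.14 to 7.21 in the CKO-labelled arrays, the endothelial mean (8 of 8) 8.07 to 8.17, 8.09 to 8.18 and 8.27 to 8.42, and the foregut endoderm mean (6 of 6) 5.85 to 5.97, 5.98 to 6.11 and 6.19 to 6.54. The macrophage mean (4 of 4) was 5.92 to 6.05, 5.75 to 5.81 and 5.52 to 5.96, the erythroid mean (9 of 10) 8.51 to 8.89, 8.62 to 8.88 and 8.6 to 9.24, and the neural mean (5 of 5) 4.64 to 4.90, 4.68 to 4.95 and 4.59 to 4.88. The part of these cells in the biogenesis values was not tested. The Gata4 probe set read 8.98 ± 0.185 in control, 9.31 ± 0.0970 in the double heterozygous arrays and 9.43 ± 0.109 in the CKO-labelled arrays (SD, n = 3, 3 and 5), and was called higher in the arrays labelled CKO than in control, by 0.45 (limma adjusted p = 0.0321). Neither labels nor files place that probe set inside or outside the floxed part, so it may not check the label. Nkx2-5 read 9.87, 9.48 and 9.34 in the same order, -0.39 and -0.53 from control (adjusted p = 1.0 and 0.0990), below control in both groups with Cre.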

How the data were processed

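Pooled embryonic day 9.5 mouse hearts were measured on 11 one-colour arrays in 3 genotype groups (3, 3 and 5 arrays). Per the submitters' processing notes PLIER was used, and the authors deposited 1 linear intensity per probe set and array; labels and files do not state its background correction, scaling or version. Here 64 control probe sets were left out, log2(intensity + 16) was quantile-normalised, and all 45037 probe sets were tested without a filter in limma 3.58.1 (R 4.3.3; lmFit, eBayes with intensity trend, 8 residual degrees of freedom, Benjamini-Hochberg adjustment over all probe sets, called at adjusted p under 0.05, two-sided). Gene names come from GEO's platform annotation; 1 probe set per gene, the brightest, was kept. The number of arrays limits the precision. Alternatives were offsets 1 and 64, the deposited scale, median centring, a filter at a mean log2 of 7, probe set choice, array weights, a replicate block and leaving out arrays.

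The members, the lists and the tests were chosen with earlier results of these data known, so lists were described by counts and medians, with no test of their own. Genes were named by rule: members called in a comparison, the 4 highest and the 4 lowest of each comparison, and a set of members with known roles; Rpl7a and Rps20 were added after their values were seen. The fitting script was tested on simulated data.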

Additional observations from a re-analysis of the deposited data

Results flagged for a closer look

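In groups of 4 to 10 arrays, a value far from all others of its group was looked for in the CKO-labelled group in 28 measures (26 named genes, and the members' median and share of intensity per array), and 2 were found; chance gives about 1 in 20. The Rps16 probe set read 4.51 in CKO replicate 3, where the next highest array of the group read 4.09 and the lowest 4.0, the value of a deposited intensity of 0. The Rps25 probe set read 8.20 in CKO replicate 2, where the next highest array read 7.87 and the lowest 7.73. CKO replicate 2 is also the array with the highest 3′ over 5′ actin signal.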

How the results depend on the processing

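The count of members called was 0 in 95 of 96 combinations of comparison and alternative. The exception was the filter at a mean log2 of 7, with 1 member called between CKO-labelled and control hearts (Rpl7a). The members' median moved by more than the spread between replicates in 7 of 75 values, each with another scaling. On the deposited scale it moved to -0.12 (CKO-labelled minus control), -0.11 (minus double heterozygous) and -0.0393 (double heterozygous minus control). With median centring the comparisons with the CKO-labelled hearts moved to -0.12 and -0.15. With median centring and no CKO replicate 3, an alternative chosen after seeing the data, they moved to -0.10 and -0.13. Leaving out 1 array in turn gave medians from -0.02 to 0.01 against control, -0.02 to 0.00 against double heterozygous hearts and -0.02 to -0.00325 between these groups, with 0 members called. Of 1779 values of single named genes under an alternative, 86 moved by more than the spread between replicates, 66 of them on the deposited scale or with median centring.

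Replicate numbers were not taken to pair the arrays, since not every same-numbered pair had a correlation over 0.1: the correlation of deviations between same-numbered arrays lay between -0.06 and 0.15 over 9 pairs, and 9 of 18 comparisons of an array with another group had their highest correlation at its own number, where 5.2 would be met if every number were equally likely. With a replicate block the members' medians were 0.00322, 0.00946 and -0.01, and 0 members were called. Over all probe sets the block took the calls from 632 to 265 against control and from 157 to 65 against double heterozygous hearts.

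The precision is limited by 3 to 5 arrays a group and, for 10 of 49 members, by a mean log2 signal under 9. Quantile normalisation gives every array the same set of values, so a shift common to most bright genes cannot appear in it.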
